A study of Mus musculus with 4 samples.

Results

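The gene set described here holds 10 immediate early genes: Fos, Fosb, Jun, Junb, Jund, Egr1, Atf3, Ier2, Ier3 and Dusp1. They were taken by symbol from a fixed list of genes known to respond to tissue dissociation, and all 10 were found among the 17746 gene symbols of the deposited table. The RNA came from cells sorted from lung tumours of mice with floxed Rb1 and Trp53 (Rb1 fl/fl, Trp53 fl/fl), which model small cell lung cancer. All animals also carried a knocked-in GFP-LC3-RFP-LC3ΔG probe, whose GFP part is degraded by autophagy while its RFP part remains. Tumours were digested to single cells, red blood cells were removed, and live (DAPI-negative) cells positive for EpCAM and RFP were split by GFP, giving 2 libraries of GFP-positive and 2 of GFP-negative cells. No source used here gives the age of the mice, the driver of recombination or whether libraries come from different animals, so the p-values measure only the spread between these libraries, which may be technical. Sample titles call the GFP-positive libraries high in autophagic flux, whereas the design text gives high flux to GFP-negative cells. Groups are named here by their GFP status, and a change below 0 means a lower level in GFP-negative libraries.

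Immediate early genes are transcribed within minutes of a stimulus from factors that are already in the cell, without new protein synthesis. Growth factor, stress and calcium signals reach them through MAP kinases, serum response factor with its ETS partners, and CREB. Fos and Jun proteins pair through their leucine zippers to form AP-1, which binds DNA. Enzymatic digestion of tissue is itself known to induce these genes, so in sorted cells their level can carry the handling of the tissue as well as the state of the cell in the animal. No library of undigested tissue was analysed here, and the part of digestion in the values was not tested.

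The libraries held 51994432 to 73997175 counts, and between 6063 and 17617 symbols had counts. The lowest number of symbols belonged to GFP-positive replicate 1, which stood apart from the other 3 libraries, so results are also given without it. Of the neuroendocrine markers of the labelled tumour cell type, Chga and Chgb had 0 counts in that library and another 5 of 10 lay between 0.107 and 0.213 CPM. The other 3 were present there: Calca at 3073 CPM, its highest level in the 4 libraries, Uchl1 at 132 CPM, and Epcam, whose protein was used in the sort, at 94.0 CPM. In the other 3 libraries Chga lay between 94.1 and 494.5 CPM, Chgb between 176 and 268 CPM and Epcam between 65.9 and 255 CPM. Levels called CPM are counts scaled to the library size after TMM adjustment, and compare libraries for 1 gene. Levels called FPKM are the authors' length-scaled values and were used to compare genes with each other. Of each pair of values, replicate 1 comes first.

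All 10 genes had counts in every library, including the sparse GFP-positive replicate 1. Over all symbols, 34.2% had counts in that library and 31.7% had counts in all 4. Abundant genes were found more often, and of the 1349 symbols with a mean of 50 FPKM or more in the other 3 libraries, 81.9% had counts in GFP-positive replicate 1. Together the 10 genes took 0.959% and 1.11% of all counts (GFP-positive) against 0.883% and 0.441% (GFP-negative). Their summed level was 13290 and 11750 CPM (GFP-positive) against 5756 and 4616 CPM (GFP-negative), so the groups did not overlap in this sum. Sums of 11 genes that every cell uses did not overlap either, at 19770 and 19660 CPM against 9110 and 7185 CPM. Among the other related lists, described below, sums also lay higher in GFP-positive libraries without overlap for most. These were other immediate early genes, heat shock genes, AP-1 targets, and other AP-1 and bZIP partners. Only the sums of upstream kinases and of feedback inhibitors overlapped. Sums on this scale are not shares of a library. All tested genes summed to 1385000 and 1059000 CPM (GFP-positive) against 651300 and 1046000 CPM (GFP-negative).

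The genes fell into those with both GFP-negative libraries below both GFP-positive libraries (Fos, Junb, Jund, Atf3, Ier3 and Dusp1) and those whose groups overlapped (Fosb, Jun, Egr1 and Ier2). On the TMM scale, 6 of 10 thus lay below without overlap and 0 lay above. Over all 16301 tested genes the share lying below was 6.63% and the share lying above 25.2%. Among the 5492 tested genes with counts in all 4 libraries, as all 10 had, 18.4% lay below. Among the 1358 with a mean of 50 FPKM or more, a level that every one of the 10 except Fosb reached, 21.8% lay below. Jund left the group without overlap under scaling by library totals, by DESeq2 size factors and on the deposited FPKM, while Fos, Junb, Atf3, Ier3 and Dusp1 stayed in it under all 5 scales tried. Without GFP-positive replicate 1 the count was 7 of 10, where 27.9% of all tested genes lay below. The division was made after the values were seen. In bulk libraries, fewer cells that carry a transcript and less of it per cell cannot be told apart.

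**Figure D1:**
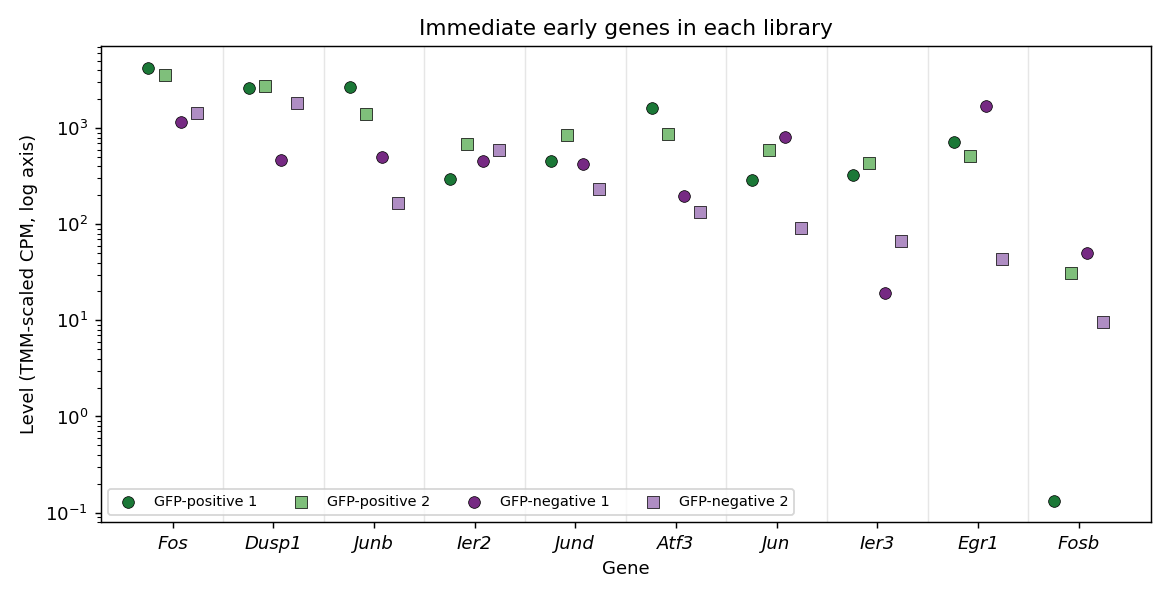
Level of each of the 10 genes (x axis, ordered by mean FPKM) in TMM-scaled CPM on a log axis (y axis), with 1 point per library, green for GFP-positive and purple for GFP-negative, circles for replicate 1 and squares for replicate 2. Both purple points lie below both green points for Fos, Dusp1, Junb, Jund, Atf3 and Ier3, and the lowest point is Fosb in GFP-positive replicate 1 at 0.133 CPM.

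None of the 10 genes passed the test of the difference between groups. The quasi-likelihood test of edgeR, adjusted by Benjamini-Hochberg over 16301 genes, called 0 of the 10, where 16 genes (0.0982%) were called in all. At an unadjusted p under 0.05 there were 2 of the 10, Junb and Atf3, both lower in GFP-negative libraries, where 0.761% of tested genes passed in that direction. DESeq2's Wald test and limma on log2 FPKM (pseudocounts of 1 and 0.1) called 0 of the 10, at backgrounds of 0.386%, 0.141% and 0.258%. limma-voom called 1 of the 10, Fos, at a background of 0.0245%. The median fitted log2 change of the 10 was -1.11, with 6 below 0. Over all tested genes the median was 0.91 with 31.9% below 0, and over the tested genes with counts in all 4 libraries it was -0.13 with 53.3% below 0.

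The promoters of the 5 genes that lay lower in GFP-negative libraries under every scale are shown because these genes shared that order of the groups. RefSeq windows (GRCm38.p6, the same assembly as mm10) reach from 250 bases before to 50 after the start of transcription. Of the 10 genes, 8 matched an entry. The RefSeq starts of Jund and Junb lie upstream of their GENCODE starts. Capitals mark the core of the cAMP response element that CREB and ATF proteins bind (TGACGT on either strand) and the TATA element (TATAAA on either strand), and all sequences run 5′ to 3′ on the strand of the gene. The windows are chr12:85473640-85473939 on the plus strand for Fos, chr1:191183284-191183583 on the minus strand for Atf3, chr17:26508423-26508722 on the minus strand for Dusp1, chr8:84978699-84978998 on the minus strand for Junb and chr17:35821463-35821762 on the plus strand for Ier3.
Fos: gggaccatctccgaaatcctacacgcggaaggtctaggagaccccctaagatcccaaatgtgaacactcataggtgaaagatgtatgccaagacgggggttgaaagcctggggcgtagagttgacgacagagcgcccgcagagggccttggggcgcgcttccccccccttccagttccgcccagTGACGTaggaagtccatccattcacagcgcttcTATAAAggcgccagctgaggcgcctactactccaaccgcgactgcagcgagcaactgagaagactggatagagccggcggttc
Atf3: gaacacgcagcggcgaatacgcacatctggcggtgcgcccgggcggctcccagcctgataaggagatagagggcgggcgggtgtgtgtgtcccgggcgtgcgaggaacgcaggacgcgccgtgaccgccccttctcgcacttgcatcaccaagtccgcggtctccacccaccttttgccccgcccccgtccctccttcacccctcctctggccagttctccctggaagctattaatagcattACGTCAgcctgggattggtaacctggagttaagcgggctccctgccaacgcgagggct
Dusp1: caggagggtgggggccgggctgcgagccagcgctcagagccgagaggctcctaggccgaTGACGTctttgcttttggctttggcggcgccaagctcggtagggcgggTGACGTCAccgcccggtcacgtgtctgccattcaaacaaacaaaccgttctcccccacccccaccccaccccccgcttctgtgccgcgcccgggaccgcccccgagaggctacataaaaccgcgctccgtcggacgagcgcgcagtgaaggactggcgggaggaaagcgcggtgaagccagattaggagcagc
Junb: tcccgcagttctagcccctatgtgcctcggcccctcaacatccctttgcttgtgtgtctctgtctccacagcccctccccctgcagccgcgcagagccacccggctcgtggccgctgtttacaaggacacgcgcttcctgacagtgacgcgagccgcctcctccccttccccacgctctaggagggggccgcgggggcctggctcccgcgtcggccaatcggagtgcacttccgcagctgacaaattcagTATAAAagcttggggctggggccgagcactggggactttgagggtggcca
Ier3: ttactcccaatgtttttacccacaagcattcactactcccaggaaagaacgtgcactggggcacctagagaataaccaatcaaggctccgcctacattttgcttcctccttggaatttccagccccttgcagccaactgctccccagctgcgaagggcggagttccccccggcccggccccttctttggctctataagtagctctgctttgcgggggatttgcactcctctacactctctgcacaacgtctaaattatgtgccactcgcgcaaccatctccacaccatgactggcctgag
The core of the cAMP response element was found in Fos, Atf3 and Dusp1, which is 3 of the 8 windows, against 7.51% of all 32851 windows. In Fos it began 66 bases before the start, in Atf3 8 bases before it, and in Dusp1 at 191, 143 and 141 bases before it, where the last matches overlap as the full palindrome. TATAAA was found in Fos and Junb, 2 of the 8, against 13.6% of all windows. The match in Fos began 33 bases before the start, and that in Junb at the RefSeq start itself. The GENCODE start of Junb lies farther downstream, at chr8:84978718 on the minus strand, so the match in Junb is upstream of that start. The AP-1 site (TGACTCA, either strand) and the CArG box of serum response factor were found in 0 of the 8, against 5.20% and 1.63% of all windows. A match is a description of the letters in this window only, and sites farther from the start were not searched.

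Fos, the partner of Jun proteins in the classical AP-1 dimer, was the most abundant of the 10 per length in every library. Its FPKM was 1174 and 1240 (GFP-positive) against 659 and 510 (GFP-negative), which placed it 45th, 47th, 46th and 147th among all 17746 symbols. In CPM it stood at 4276 and 3598 (GFP-positive) against 1147 and 1444 (GFP-negative). The libraries of a group lay close together, 1.19-fold apart in GFP-positive and 1.26-fold apart in GFP-negative. Tested genes with counts in all 4 libraries differed by a median of 5.44-fold and 2.59-fold. That background was not matched to the abundance of Fos. The fitted log2 change was -1.60 ± 0.85 (SE, 2 libraries a group, edgeR adjusted p = 1.0), and it ranged from -1.72 to -1.45 when each library was left out in turn. limma-voom gave a log2 change of -1.61 with an adjusted p of 0.00675, and over the other alternatives the adjusted p of Fos ran from 0.227 to 1.0. The level of Fos was thus lower in both GFP-negative libraries, and its call rested on the tool.

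Fosb, the paralogue of Fos whose short splice form accumulates under repeated stimulation, was the least abundant of the 10 per length in every library. It had 5 and 2003 counts (GFP-positive) against 5668 and 643 counts (GFP-negative), or 0.133 and 31.4 CPM against 49.9 and 9.66 CPM. The GFP-positive libraries stood 236-fold apart, and the groups overlapped. Its log2 change of 0.92 ± 4.19 (SE, 2 libraries a group, edgeR adjusted p = 1.0) became -0.084 without GFP-positive replicate 1 and 7.79 without GFP-positive replicate 2, where edgeR called it (adjusted p = 0.0273). In that refit 45.2% of all tested genes were called. Per 100 FPKM of Fos, Fosb stood at 0.000939 and 0.329 FPKM (GFP-positive) against 1.64 and 0.252 FPKM (GFP-negative).

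The 3 Jun genes, which supply the other side of the AP-1 dimer, did not follow one order across libraries. Junb, which is induced with Fos and is a weaker activator than Jun in many settings, stood at 2699 and 1417 CPM (GFP-positive) against 498 and 166 CPM (GFP-negative). Both GFP-negative libraries were low, and the log2 change was -2.63 ± 1.16 (SE, 2 libraries a group, edgeR unadjusted p = 0.0237, adjusted p = 1.0). It ranged from -3.64 to -1.97 when each library was left out. Jun, the best known transactivating partner of Fos, stood at 286 and 594 CPM (GFP-positive) against 810 and 92.4 CPM (GFP-negative). The highest and the lowest of these values were both in the GFP-negative group, 8.76-fold apart. Its log2 change of 0.036 ± 1.56 became -2.25 without GFP-negative replicate 1 and 0.91 without GFP-negative replicate 2. Jund, the Jun gene that is expressed most evenly in unstimulated cells, stood at 451 and 841 CPM (GFP-positive) against 419 and 232 CPM (GFP-negative). The log2 change of Jund was -0.99 ± 1.53 (edgeR adjusted p = 1.0), and its lowest GFP-positive and highest GFP-negative values lay next to each other.

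Shares within the Jun family do not depend on how libraries are scaled. Junb made up 80.6% and 53.2% of the summed FPKM of the 3 genes in GFP-positive libraries and 35.3% and 35.2% in GFP-negative libraries. It was the leading Jun transcript in both GFP-positive libraries and, by a small margin, in GFP-negative replicate 1. Jund led in GFP-negative replicate 2. Jun made up 4.84% and 12.6% in GFP-positive and 32.5% and 11.2% in GFP-negative libraries. Jund made up 14.6% and 34.2% in GFP-positive and 32.2% and 53.6% in GFP-negative libraries. The groups did not overlap for the share of Junb and overlapped for those of Jun and Jund. No test of these shares was run, and an exact permutation of 2 libraries against 2 has no outcome below 0.05. The library type does not mark strand, so reads of a gene and of an overlapping gene on the other strand cannot be told apart. Junb overlaps Prdx2 in the annotation, and Prdx2 stood at 140 and 407 CPM (GFP-positive) against 346 and 851 CPM (GFP-negative), not in the order of Junb. The antisense genes Junos and Gm11175 overlap Jun and Jund and were not analysed here.

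**Figure D2:**
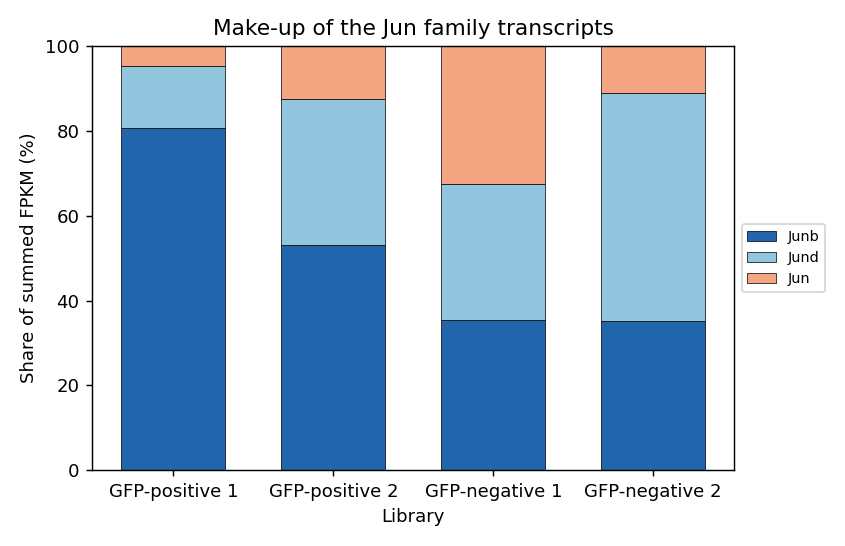
Share of each Jun gene in the summed FPKM of Jun, Junb and Jund (y axis, percent) in the 4 libraries (x axis), as stacked bars from 0 to 100. Junb takes 80.6% and 53.2% in GFP-positive libraries, and 35.3% and 35.2% in GFP-negative ones.

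Atf3, a stress-induced member of the ATF and CREB family that can pair with Jun proteins and often represses, was low in both GFP-negative libraries. It stood at 1621 and 874 CPM (GFP-positive) against 197 and 133 CPM (GFP-negative). The log2 change was -2.92 ± 1.42 (SE, 2 libraries a group, edgeR unadjusted p = 0.04, adjusted p = 1.0), and it ranged from -3.30 to -2.41 when each library was left out. Relative to Fos it was lower too, with 41.4 and 26.5 FPKM per 100 FPKM of Fos in GFP-positive and 18.7 and 10.1 in GFP-negative libraries.

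Egr1, a zinc finger transcription factor induced by MAP kinase signalling through serum response elements, varied most among the 9 genes other than Fosb. It stood at 726 and 508 CPM (GFP-positive) against 1691 and 43.1 CPM (GFP-negative). The GFP-negative libraries were 39.2-fold apart, with 1 above and 1 below both GFP-positive libraries. Its log2 change was 0.49 ± 1.30 (edgeR adjusted p = 1.0), and -3.84 without GFP-negative replicate 1. In that library Egr1 reached 77.4 FPKM per 100 FPKM of Fos, against 1.57 to 8.90 in the other 3. GFP-negative replicate 1 was also the library with the highest CPM of Jun and Fosb.

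Ier2, a short nuclear protein of the early serum response, differed least between libraries on the CPM scale, while on FPKM Fos did, with a 2.43-fold range. Ier2 stood at 296 and 684 CPM (GFP-positive) against 452 and 598 CPM (GFP-negative), a 2.31-fold range. The groups overlapped, and the log2 change was 0.10 ± 1.49 (edgeR adjusted p = 1.0). Relative to Fos, Ier2 lay at 10.7 and 29.3 FPKM per 100 FPKM of Fos in GFP-positive and at 60.8 and 63.9 in GFP-negative libraries, which did not overlap. Ier3, a stress-induced regulator of cell survival and a target of NF-κB, showed the lowest fitted change of the 10. Its level was 329 and 436 CPM (GFP-positive) against 19.3 and 67.2 CPM (GFP-negative) (log2 change -3.15 ± 2.15, SE, 2 libraries a group, edgeR adjusted p = 1.0). Leaving out each library gave log2 changes from -4.27 to -2.51. Ier2 and Ier3 share a naming scheme and not a protein family.

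Dusp1, the phosphatase that switches off p38 and JNK MAP kinases and so ends the signal that induces it, was abundant in every library. It stood at 2605 and 2770 CPM (GFP-positive) against 472 and 1830 CPM (GFP-negative). The GFP-positive libraries were 1.06-fold apart and the GFP-negative libraries 3.88-fold apart. The log2 change was -1.22 ± 0.94 (edgeR adjusted p = 1.0), -0.56 without GFP-negative replicate 1 and -2.46 without GFP-negative replicate 2, so its size moved with the GFP-negative library used. Against Fos, Dusp1 lay at 43.3 and 54.7 FPKM per 100 FPKM of Fos in GFP-positive and at 29.2 and 90.0 in GFP-negative libraries, which enclosed the GFP-positive values.

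**Figure D3:**
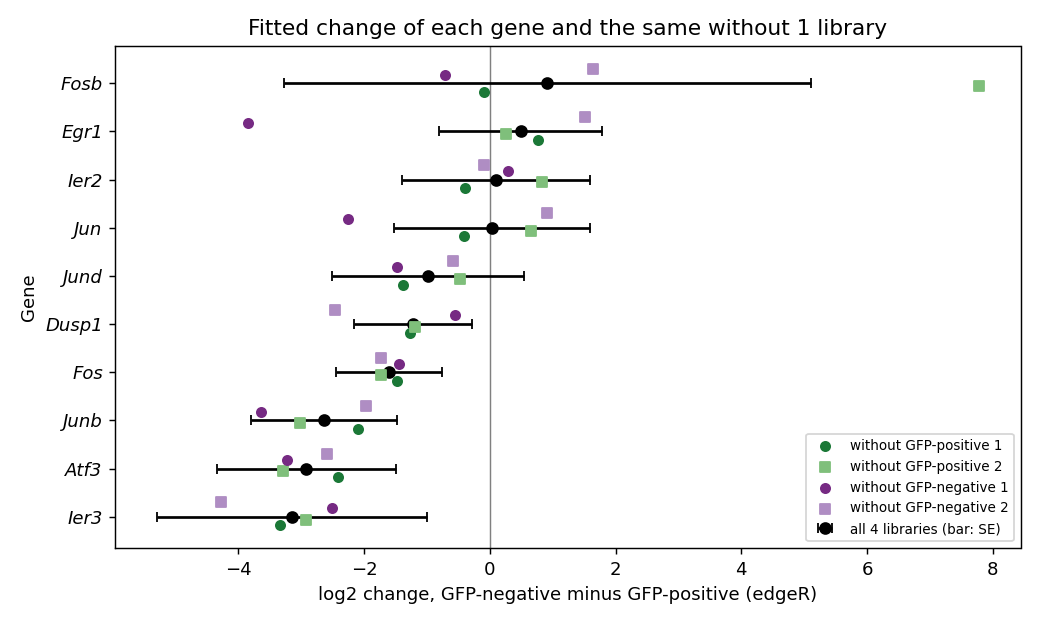
Fitted log2 change of each gene (x axis, GFP-negative minus GFP-positive, edgeR) with all 4 libraries (black, bars are SE) and with each library left out (coloured points). Fos stays between -1.72 and -1.45, while Egr1, Jun, Fosb and Ier2 have points on both sides of 0.

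By mean FPKM over the libraries, Fos came first with a geometric mean of 837 FPKM, followed by Dusp1 (418), Junb (363), Ier2 (278), Jund (230), Atf3 (179), Jun (92.2), Ier3 (90.4), Egr1 (79.1) and Fosb (0.889). Only the first and last steps of this order held in all 4 libraries: Fos was above Dusp1 and Egr1 above Fosb in each. The neighbours from Dusp1 to Egr1 changed places in at least 1 library, and Jun lay above Ier3 in 1 of 4.

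The gene models shared features that the choice of genes did not use. In GENCODE M21, 4 of the 10 (Jun, Junb, Jund and Ier2) have a longest coding transcript of 1 exon, against 2.72% of 13148 tested protein-coding genes. The median gene span was 3.81 kb, against 23.7 kb for those genes. The exceptions are Atf3 and Dusp1, whose annotated spans of 47.7 and 56.5 kb include distant starts. Dusp1 overlaps Ergic1 on the other strand, which stood at 128 and 91.2 CPM (GFP-positive) against 116 and 69.1 CPM (GFP-negative), below the level of Dusp1 in each.

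Other immediate early genes were divided as well. Of 36 tested genes of this class, edgeR called 0, with 27 fitted below 0 and a median log2 change of -1.25. In 16 of the 36 the groups were free of overlap, all lower in GFP-negative libraries, against 6.63% of all tested genes. This count depended on the scale: it was 6 under library totals (4.53% of all genes), 7 on deposited FPKM (4.53%), 12 under DESeq2 size factors (5.74%) and 18 under upper quartile scaling (8.72%). Without GFP-positive replicate 1, where 7 of the 36 had 0 counts, it was 22 at a background of 27.9%. Zfp36, which binds and destabilises mRNAs of early genes, stood at 880 and 673 CPM (GFP-positive) against 105 and 22.8 CPM (GFP-negative) (log2 change -3.60 ± 1.76, SE, 2 libraries a group, edgeR unadjusted p = 0.0413, adjusted p = 1.0). Its change was -5.09 without GFP-negative replicate 1 and -2.83 without GFP-negative replicate 2. Ccn1, a matricellular protein induced by serum and by YAP, stood at 827 and 24.7 CPM (GFP-positive) against 32.0 and 26.9 CPM (GFP-negative). A single library set its change, which was -3.85 with all libraries and 0.25 without GFP-positive replicate 1. Without GFP-positive replicate 2, which leaves the sparse library alone in its group, edgeR called Ccn1 (log2 change -4.81, adjusted p = 0.034), where 45.2% of all tested genes were called.

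The other AP-1 and partner bZIP genes did not lie to one side. Among 12 tested genes, 5 were fitted below 0, the median log2 change was 0.29, and edgeR called 0. In GFP-positive replicate 1, 7 of them had 0 counts. Atf7, a relative of Atf2, had 5 and 14 counts (GFP-positive) against 1068 and 394 counts (GFP-negative). It did not pass, with a log2 change of 5.42 ± 5.31 (SE, 2 libraries a group, edgeR adjusted p = 1.0).

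Genes upstream of the early response had a median near that of all genes. Of 23 kinases and factors, 6 were fitted below 0, with a median log2 change of 0.97 and 0 called, and 11 had 0 counts in GFP-positive replicate 1. Map2k1, the kinase MEK1 that activates ERK, stood at 406 and 51.6 CPM (GFP-positive) against 63.9 and 26.2 CPM (GFP-negative), and its log2 change of -2.34 was -0.20 without GFP-positive replicate 1. Rps6ka5, the kinase MSK1 that phosphorylates CREB, had 0 and 49 counts (GFP-positive) against 1272 and 218 counts (GFP-negative). Among 13 feedback inhibitors, 6 were fitted below 0, the median log2 change was 0.15 and 0 were called. Spry2, an inhibitor of receptor tyrosine kinase signalling, had 0 and 64 counts (GFP-positive) against 6222 and 429 counts (GFP-negative). Rps6ka5 and Spry2 were called by edgeR without GFP-positive replicate 2 (adjusted p = 0.0348 and 0.0113, in the refit that called 45.2% of genes) and in no other fit run. Dusp5, a phosphatase of nuclear ERK, stood at 238 and 35.4 CPM (GFP-positive) against 83.2 and 1.74 CPM (GFP-negative), and its log2 change of -1.69 became 0.26 without GFP-positive replicate 1.

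Heat shock genes, which tissue dissociation also induces, were fitted below 0 for 9 of 11 genes, with a median log2 change of -0.41 and 0 called by edgeR. Hspa1a, an inducible HSP70 gene, stood at 1454 and 606 CPM (GFP-positive) against 184 and 69.1 CPM (GFP-negative) (log2 change -3.02 ± 1.54, SE, 2 libraries a group, edgeR unadjusted p = 0.049, adjusted p = 1.0). Its near-identical copy Hspa1b stood at 401 and 142 CPM against 51.0 and 19.2 CPM, and the division of reads between the copies is uncertain. Genes known as AP-1 targets were fitted below 0 for 10 of 13, with a median of -1.86 and 0 called. Spp1, the secreted protein osteopontin, stood at 6725 and 1973 CPM (GFP-positive) against 23.4 and 2366 CPM (GFP-negative), which overlapped. Plau, the urokinase plasminogen activator, stood at 372 and 24.7 CPM against 0.458 and 4.93 CPM. Spp1 is itself the median of that list, and its change was -0.73 without GFP-positive replicate 1, -0.88 without GFP-negative replicate 1 and -7.45 without GFP-negative replicate 2, where edgeR called it (adjusted p = 5.85e-20). limma on log2(FPKM + 0.1) called Spp1 too (adjusted p = 0.000348). Plau was called by edgeR without GFP-positive replicate 2 only (adjusted p = 0.0112).

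**Figure D4:**
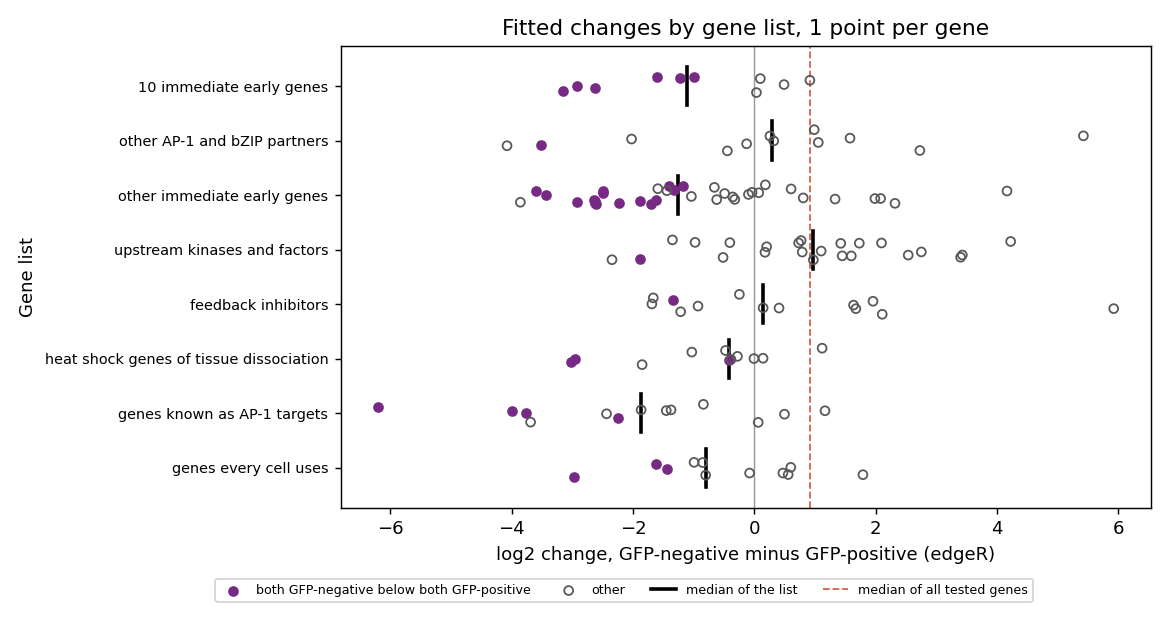
Fitted log2 change (x axis, GFP-negative minus GFP-positive, edgeR) of every tested gene in the 10 immediate early genes and 7 related lists (y axis), filled where both GFP-negative libraries lie below both GFP-positive libraries. Black bars are list medians (-1.11 for the 10 genes and -1.25 for other immediate early genes) and the dashed line is the median of all tested genes, 0.91.

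Markers of other cells and genes that every cell uses differed between the same libraries, with some lists lower in GFP-negative libraries and others not. The 11 macrophage and monocyte markers present in the table summed to 111900 and 57270 CPM (GFP-positive) against 1108 and 17900 CPM (GFP-negative). All 11 were fitted below 0, and edgeR called 3 of them lower in GFP-negative libraries, Lyz2, Chil3 and Ctss. Over all tested genes 0.0982% were called in either direction. Ptprc, which encodes CD45 of white blood cells, had 0 counts in GFP-positive replicate 1 and stood at 79.8, 22.0 and 18.4 CPM in the other libraries. Between the GFP-negative libraries the macrophage sum was higher in replicate 2, as were Ier3 and Dusp1, whereas Junb, Jund, Jun, Fosb, Atf3 and Egr1 were higher in replicate 1. Fos and Ier2 were higher in replicate 2 on TMM-scaled CPM and higher in replicate 1 on FPKM and under library totals. The 10 neuroendocrine markers summed to 3300 and 1170 CPM (GFP-positive) against 5359 and 1469 CPM (GFP-negative), highest in the library with the highest Egr1, Jun and Fosb. Calca alone gave 3073 and 350 CPM (GFP-positive) and 2744 and 489 CPM (GFP-negative) of these sums, and so nearly all of that in GFP-positive replicate 1. Of the 10 neuroendocrine markers, 9 were fitted above 0, with a median log2 change of 1.76 and 0 called by edgeR. Over all tested genes the median was 0.91, with 31.9% fitted below 0. Both GFP-negative libraries lay above both GFP-positive libraries for 3 of these markers, and for 25.2% of all tested genes. The 4 red blood cell markers summed to 33900 and 10080 CPM (GFP-positive) against 1097 and 3390 CPM (GFP-negative). All 4 lay lower in GFP-negative libraries without overlap, where 6.63% of all tested genes did, or 18.4% of those with counts in all 4 libraries. Of these markers 2 were called lower, Hba-a1 and Hbb-bs. Markers of hepatocytes summed to 27260 CPM in GFP-positive replicate 1 and to 158.5, 23.5 and 319 CPM in the other libraries. Of these, 3 of 4 were called lower and 2 of 4 lay lower without overlap. Their signal came mostly from GFP-positive replicate 1, as with Alb at 5080 and 0 CPM (GFP-positive) against 0.141 and 0.0601 CPM (GFP-negative). Genes that every cell uses were fitted below 0 for 7 of 11, with a median of -0.80 and 0 called. B2m, the light chain of MHC class I, stood at 6500 and 5354 CPM (GFP-positive) against 323 and 1191 CPM (GFP-negative), and Actb at 3737 and 7123 CPM against 3238 and 748 CPM. B2m was not called with all libraries (log2 change -2.97, edgeR adjusted p = 0.194), but was called lower by edgeR with the replicate block (adjusted p = 0.00413), without GFP-negative replicate 1 (0.0388) and without GFP-negative replicate 2 (2.02e-14), and by limma on log2(FPKM + 1) (0.00721) and log2(FPKM + 0.1) (6.48e-11). Actb was called without GFP-negative replicate 1 (log2 change -2.86, edgeR adjusted p = 0.00695, against -1.45 and 1.0 with all libraries). The part of these differences in the values of the early genes was not tested.

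The genes nearest to the mean pattern of the 10 were Fabp5, Arhgdia, Dynll1, Rgs2 and Ctsl. The measure was the Euclidean distance of log2(CPM + 1) over the 4 libraries, and it ran from 0.84 for Fabp5 to 1.22 for Ctsl. The mean of the 10 on this scale was 8.87 and 9.46 (GFP-positive) against 8.36 and 7.44 (GFP-negative). Fabp5, a fatty acid binding protein, lay at 8.79 and 8.99 against 7.70 and 7.65 on the same scale, and Rgs2, a regulator of G protein signalling, at 9.26 and 9.62 against 7.66 and 6.57. Over 4 libraries this likeness describes level and order only.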

How the data were processed

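Very small amounts of RNA were reverse transcribed from an oligo(dT) primer by the SMARTer method, and the cDNA was PCR-amplified, fragmented and sequenced in pairs, per the labels' protocols. The authors deposited 1 table with whole-number counts per gene symbol for each library, and the same deposited table gives FPKM, scaled by the authors to gene length and library total. Build mm10 and the tools StringTie 2.1.6, HISAT2 2.2.1, cutadapt 1.9, edgeR and DESeq2 are named in the submitters' processing notes; which program made the counts is not given in the sources used here. Reads carry no molecular identifiers, so amplification adds error that counts do not show.

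Counts were filtered with filterByExpr (minimum count 10), which left 16301 genes, scaled by TMM and fitted with edgeR 4.0.16 (R 4.3.3), with the GFP group as the only term. The quasi-likelihood test was adjusted by Benjamini-Hochberg at a threshold of 0.05. SE was taken as |log2 change| over the root of the F statistic. Limit values at 0 counts (3 counts) equal 0.026 to 0.080 CPM, for counting error only. Alternatives used DESeq2 1.42.0, limma 3.58.1, other scales and filters, a replicate block, and fits without each library. The count of genes whose groups do not overlap, under other scales and without each library, was added after seeing the data. The script was tested on simulated counts that varied far less between libraries than these data. Here edgeR's common coefficient of variation between libraries of a group was 1.92, so that test does not show the power of the fits. Groups came from the sample descriptions. Gene models are from GENCODE M21 and promoters from RefSeq.

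The genes and lists were chosen with earlier results of these data known. All 10 genes were named, and in each related list up to 3 called genes or, with none called, the 2 with the smallest p. The 5 genes nearest in pattern (mean of at least 5 CPM) were added, and other genes were named after their values were seen. Of the genes this rule picks, 1 is not reported here.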

Additional observations from a re-analysis of the deposited data

How the results depend on the processing

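No call among the 10 genes was made by edgeR under any other scale or filter, and Fos was the 1 gene called by limma-voom. Genes called in all were 16, against 0 under upper quartile scaling (1150 at an unadjusted p under 0.05), 63 by DESeq2's Wald test, 4 by limma-voom, 42 by limma on log2(FPKM + 0.1), 5 among genes with counts in all 4 libraries, and 1 to 7601 when each library was left out, where 0 to 1 of the 10 genes were called. The extremes came without GFP-positive replicate 1 and without GFP-positive replicate 2, and 59 were called without GFP-negative replicate 2. The median log2 change of the 10 was -6.77 under upper quartile scaling, which by construction follows the 75th percentile of counts, 10 in GFP-positive replicate 1 and 1993 to 4131 in the others. It ran from -1.87 to -0.83 when each library was left out and from -1.35 to -0.62 under the other alternatives. The number of the 10 lying below without overlap was 5 under library totals, FPKM (4.53% of all tested genes under each) and DESeq2 size factors (5.74%), 7 under upper quartile scaling (8.72%), and 6 to 8 with 1 library left out, where 11.5% to 27.9% of all tested genes lay below.

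Of 150 refitted changes of the 10 genes, 19 turned direction, all in Fosb, Jun, Egr1 and Ier2, none of them called by the main test, and the cause was not tested beyond the library left out. Jun and Egr1 gave -0.59 and -1.17 with the replicate block, -5.43 and -5.84 under upper quartile scaling, -0.23 and -0.17 in limma-voom, -0.026 and -0.55 on log2(FPKM + 1), and -0.039 and -0.61 on log2(FPKM + 0.1). Ier2 gave -5.12 under upper quartile scaling and -0.075 in limma-voom. With 1 library left out, Fosb ran from -0.71 to 7.79, Jun from -2.25 to 0.91, Egr1 from -3.84 to 1.52, Ier2 from -0.39 to 0.83, Ccn1 from -4.81 to 0.25 and Dusp5 from -6.30 to 0.26. The numbers of the replicates pair libraries in no label, and same-numbered libraries deviated from their group means with a correlation of 0.033 over 16301 genes. The fit with the replicate block called 21 genes, 12 of them among the 16, and 0 of the 10. Among the 10 genes, 1 value rests on few counts, that of Fosb in GFP-positive replicate 1, with 5 counts. That library held 51994432 counts but had counts for only 6063 symbols, so the limit at 3 counts does not describe its zeros. The reason for its missing symbols was not tested.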

Other observations

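Relatives within the wider class of immediate early genes are given side by side. These genes were picked after their values were seen and serve as description. Nr4a1, an orphan nuclear receptor induced by many stimuli, stood at 449 and 447 CPM (GFP-positive) against 191 and 85.2 CPM (GFP-negative), while its relative Nr4a3 had 0 and 2.71 CPM against 1.70 and 0.841 CPM, the same order as Nr4a1 when the 0 of GFP-positive replicate 1 is left out. Klf6, a zinc finger factor, stood at 933 and 701 against 445 and 282 CPM, and its relative Klf10, induced by TGF-β, at 23.0 and 106 against 411 and 100.4 CPM. Arc, known from active neurons, stood at 0.213 and 55.1 CPM (GFP-positive) against 270 and 6.22 CPM (GFP-negative), highest in the library that also had the highest Egr1 and Fosb. Gadd45g, a stress sensor, stood at 438 and 636 against 545 and 1090.0 CPM, and Gadd45b at 257 and 317 against 131 and 56.9 CPM. Of these genes Nr4a1, Klf6 and Gadd45b had both GFP-negative libraries below both GFP-positive libraries. Over all tested genes 6.63% did so, and 18.4% of those with counts in all 4 libraries. None of the genes named here was called by edgeR.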
